A study of Mus musculus with 14 samples.

Results

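Chemokines and their receptors were followed across normal mouse intestine, intestinal adenomas and a colon carcinoma cell line. The genes were taken by name, as every gene on the array called Ccl, Cxcl, Cx3cl, Xcl, Ccr, Cxcr, Cx3cr or Xcr with a number and at most 1 letter behind it. This gave 54 of 36161 gene names, of which 35 were ligands and 19 receptors, measured by 68 probes. Chemokines are small proteins, most of them secreted, that guide the migration of leukocytes by binding G protein-coupled receptors on the cell surface. In the gut, the ELR CXC ligands of Cxcr2 recruit neutrophils and the ligands of Ccr2 recruit monocytes. Ccl25 and its receptor Ccr9 bring lymphocytes to the small intestine, Ccl28 and Ccr10 bring antibody-secreting cells to the colon, and Cxcl13 with Cxcr5 gathers B cells into lymphoid follicles.

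The study set DNA methylation beside gene expression in normal intestine, in early tumors and in a tumor line, and the expression data come from 14 one-color arrays. Whole tissue of small intestine (3 arrays) and of colon (3 arrays) came from wild type C57BL/6J mice, which the methods describe as adults. Macroscopic adenomas (3 arrays) and tissue adjacent to adenomas (2 arrays) came from APCmin/+ mice on the same background, which carry 1 mutant copy of Apc in every cell, the adjacent tissue included. CT26 (3 arrays), a colon carcinoma cell line of BALB/c origin from ATCC, stood for the advanced stage. By the study's list of samples, all adenoma and adjacent pieces on arrays came from a single mouse, so that the p-values of these groups measure the spread between pieces of tissue. The same list places 1 colon sample under an APCmin/+ mouse, whereas by the labels every colon sample is C57BL/6J. The exact ages are not given in the sources used here. In these bulk samples, fewer cells of a type and less RNA per cell cannot be told apart.

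A level is the log2 of a probe's background-subtracted signal minus the 75th percentile of its array, and a gene was read from its brightest probe. Levels of different probes are not comparable with each other, so that each gene was set only against itself. On each array, from 46.8% to 58.2% of the probes were well above background, and the arrays lay on 2 slides. Colon replicate 3 had the lowest share and stood apart. Over all probes its correlation with the small intestine arrays was 0.96 to 0.966, and with the other colon arrays 0.937 to 0.939, while those 2 had 0.979 with each other. Its summed signal of 10 enterocyte genes of the small intestine was 1780 times the 75th percentile, against 113 and 189 on the other colon arrays and 1730 to 4750 in small intestine, and its B cell genes summed to 46.4 against 6.51 and 8.62. Results on colon are therefore given with and without it. Epithelial markers were present in every tissue, but in CT26 only 3 of 8 were well above background on every array, and Epcam, Cdh1, Krt19 and Vil1 were so on none.

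Of the 54 genes, 44 were well above background on all arrays of at least 1 group, 31 ligands and 13 receptors. Adenomas had the most, with 41, followed by adjacent tissue with 36, small intestine with 26, colon with 25 and CT26 with 11. Such a count needs every array of a group, and adjacent tissue had fewer arrays than the others. Colon includes replicate 3, with the lowest share of probes well above background. The same count over all genes was not made, so that this order is not a result about chemokines. Only 7 genes were well above background on all 14 arrays. The neutrophil receptors Cxcr1 and Cxcr2, the dendritic cell receptor Xcr1, the receptors Ccr1 and Ccr4 and the ligands Ccl20, Ccl26 and Cxcl15 were so on no array. The ligand Ccl22 was measured on CT26 replicate 1 alone, with a level of -3.61, and Ccr3, a receptor of eosinophils, on 3 arrays, small intestine replicate 1 (-4.48) and CT26 replicates 1 (-4.20) and 3 (-4.20). These 10 genes entered no test.

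Of the 54 genes, 11 had more than 1 probe, and the dimmer probes did not always follow the brightest. They differed for Cxcl11, Ccl19, Cxcl12, Ccl25 and Cx3cr1, and the second probes of Ccr8 and Ccr9 were well above background on no array. The brightest probe of Cxcl11, a ligand of Cxcr3, had means from 8.31 to 8.84 in all 5 groups, whereas its other probe ran from 2.0 in adenomas to 3.21 in CT26. For Ccl19, which draws cells into lymphoid tissue through Ccr7, the brightest probe averaged -0.44 in CT26 and -2.30 in colon. Another of its 3 probes averaged -7.29 in CT26 and -2.12 in colon, the opposite order. Values of these genes hold for the probe named only. Near-identical copies of Ccl19 and Ccl27a lie on mouse chromosome 4, and their probes may read more than 1 copy.

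**Figure D1:**
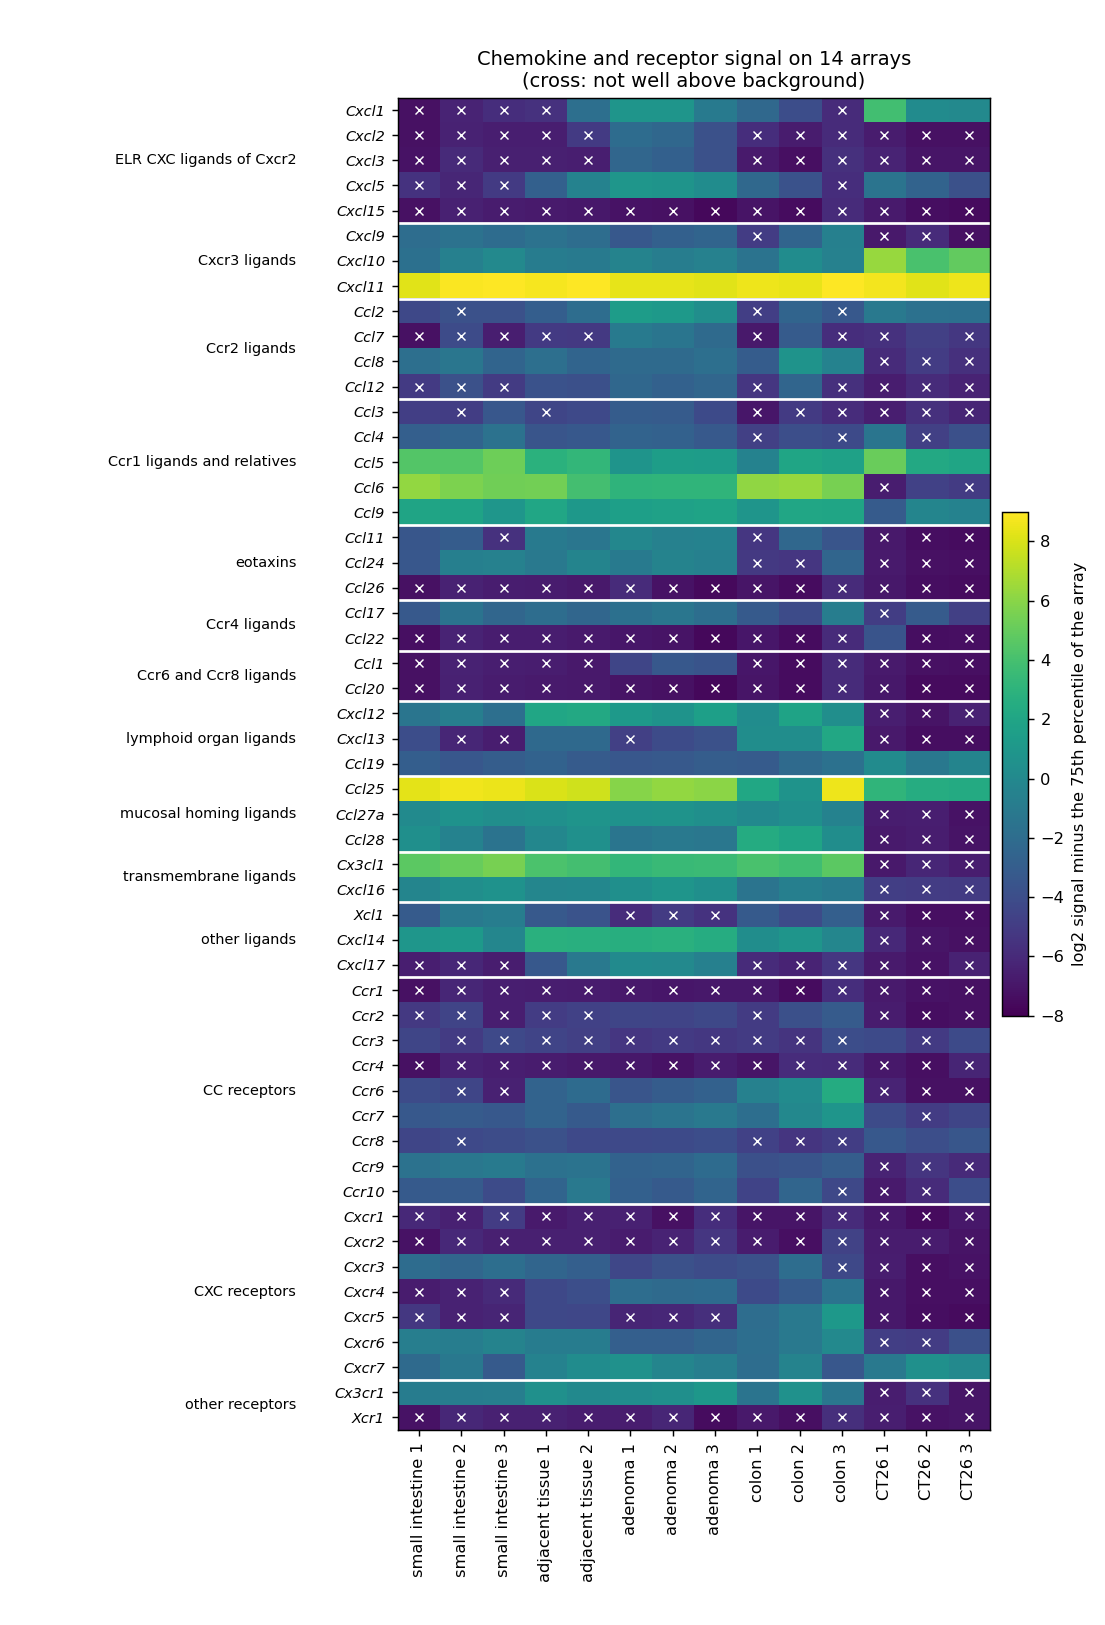
Level of the chemokine and receptor genes (rows, by role) on each of the 14 arrays (columns), as log2 signal minus the 75th percentile of the array, with white crosses where the probe was not well above background. Cxcl2, Cxcl3, Cxcl5 and Cxcl17 are brightest in the adenoma columns, Ccl25 is bright in small intestine, adjacent tissue and on colon 3, and most rows are dark in CT26.

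Adenomas differed from healthy small intestine in 22 of the 42 genes tested. Of these, 15 rose, among them all 4 measured ELR CXC ligands, 3 of 4 Ccr2 ligands, Ccl11, Ccl1, Cxcl17 and the receptors Cxcr4 and Ccr7. The other 7 fell, namely Ccl5, Ccl6, Ccl25, Cx3cl1, Xcl1, Cxcr3 and Cxcr6. A gene was called at a log2 difference of at least 1.2 in size and an adjusted p of at most 0.01 (limma, Benjamini-Hochberg over all probes tested). Over all genes tested, 11.3% were higher and 11.1% lower by this rule. The median difference was 0.79 over the chemokine genes tested and -0.15 over all genes tested. A gene was tested when all arrays of at least 1 of the groups compared had its probe well above background. This filter favours a difference for a gene measured in 1 group alone, and such counts and medians describe the genes tested only. All 22 differences had the same direction on both slides, and all were called again with the slide as a block. With any 1 array left out, 15 of the 22 stayed past both thresholds. The other 7 (Ccl7, Ccl11, Ccl12, Cxcl14, Cx3cl1, Cx3cr1 and Xcl1) each missed at least 1 of them on leaving out some array. With another background correction (normexp), which draws dim probes together, Ccl1, Ccl12, Ccr7, Cx3cr1, Cxcl2, Cxcl3 and Cxcr3 missed the threshold, with log2 differences of 0.59, 0.65, 1.04, 1.13, 1.06, 0.88 and -1.17 in that order.

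The ELR CXC ligands rose together. Their probes, with that of Cxcl15, lie on chromosome 5 between positions 91190490 and 91334593 (mm9). Cxcl1, a neutrophil attractant, had levels of 0.89, 0.89 and -0.96 on the adenoma arrays and of -7.25, -6.32 and -5.75 in small intestine, where it was well above background on none. The adenoma arrays were all far above those of small intestine, with a log2 difference of 6.72 ± 0.59 (SE), adjusted p = 0.000254. Since the lower group was not measured, the fold has only a bound, computed from the lowest signal well above background on each dim array, and Cxcl1 was at least 27.4-fold higher.

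Cxcl5, which is made by epithelial cells and also binds Cxcr2, had levels of 0.95, 0.83 and 0.26 in adenomas and -5.50, -6.18 and -5.14 in small intestine, again not well above background there. The groups did not overlap, the difference was 6.29 ± 0.32 (SE), adjusted p = 6.2e-05, and the fold was at least 36.3. Cxcl2 and Cxcl3, close relatives of Cxcl1, were well above background on the adenoma arrays alone of all 14. Cxcl2 was at -2.02, -2.30 and -3.79 in adenomas against -7.21, -6.35 and -6.56, a difference of 4.0 ± 0.48 (SE), adjusted p = 0.000793 and at least 3.48-fold. Cxcl3 was at -2.39, -2.79 and -3.81 against -7.19, -6.00 and -6.50, a difference of 3.56 ± 0.44 (SE), adjusted p = 0.000871 and at least 2.84-fold. All 4 were lowest on adenoma replicate 3 among the adenoma arrays.

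The receptor of these ligands, Cxcr2, was not well above background on any adenoma array, with levels of -6.71, -6.31 and -5.34. Of 10 neutrophil marker genes, 9 were well above background on all adenoma arrays and 4 on all small intestine arrays, where S100a8, Mmp8 and Ngp were so on none. Of 9 tested, 4 rose and 0 fell. Their summed signal was 48.5 to 56.7 times the 75th percentile in adenomas and 32.2 to 55.1 in small intestine, most of it from Csf3r. S100a9, a calcium-binding protein abundant in neutrophils, had levels of 1.40, 1.28 and 1.69 in adenomas and -4.44, -4.92 and -4.02 in small intestine. Whether these cells contribute to the ligand levels was not tested.

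Cxcl1, Cxcl2 and Cxcl3 lie close together on chromosome 5, and their promoters are shown because these genes moved together in adenomas while Cxcl1, but not Cxcl2 or Cxcl3, was measured in CT26. The windows hold the 250 bases before each start site in RefSeq (GRCm38.p6), 5′ to 3′ on the strand of the gene. Capitals mark matches of the NF-kappaB consensus, a binding motif of the factor that mediates many inflammatory responses, and of GAAANNGAAA, the core of interferon response elements, both searched on both strands. The window of Cxcl10, a ligand of Cxcr3 induced by interferons, is added for its level in CT26. The windows are at chr5:90890995-90891244 (+), chr5:90903649-90903898 (+), chr5:90785851-90786100 (+) and chr5:92348890-92349139 (-).

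Cxcl1: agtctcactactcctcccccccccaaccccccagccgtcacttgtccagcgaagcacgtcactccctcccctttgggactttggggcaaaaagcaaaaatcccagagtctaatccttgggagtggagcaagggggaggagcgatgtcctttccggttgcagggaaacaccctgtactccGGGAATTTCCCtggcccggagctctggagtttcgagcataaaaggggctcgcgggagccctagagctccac
Cxcl2: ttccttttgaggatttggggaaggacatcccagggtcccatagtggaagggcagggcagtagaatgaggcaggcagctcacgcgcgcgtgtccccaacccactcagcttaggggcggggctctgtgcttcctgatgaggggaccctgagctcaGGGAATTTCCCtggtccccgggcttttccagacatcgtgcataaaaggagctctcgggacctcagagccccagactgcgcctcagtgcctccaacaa
Cxcl3: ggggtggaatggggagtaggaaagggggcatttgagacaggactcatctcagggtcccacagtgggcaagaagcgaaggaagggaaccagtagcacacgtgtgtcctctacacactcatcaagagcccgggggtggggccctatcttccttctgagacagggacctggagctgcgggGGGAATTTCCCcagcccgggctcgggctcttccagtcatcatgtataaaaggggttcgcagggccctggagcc
Cxcl10: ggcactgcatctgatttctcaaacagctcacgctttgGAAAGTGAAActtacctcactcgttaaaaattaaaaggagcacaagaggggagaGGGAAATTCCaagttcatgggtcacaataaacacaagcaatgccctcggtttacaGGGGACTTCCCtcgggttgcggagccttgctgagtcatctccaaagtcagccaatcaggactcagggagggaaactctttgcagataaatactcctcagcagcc

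The 3 ELR promoters carry the same 10 bases, GGGAATTTCC, which begin at -71 from the start in Cxcl1, at -97 in Cxcl2 and at -73 in Cxcl3. In each of them 1 more base extends the match on the other strand. The 10 bases were taken from the match in Cxcl1. They are not particular to these 3 genes, since the window of Ccr3, which entered no test, holds them at -179 on the other strand. Of 32851 windows of this length in the table, 0.0852% hold these 10 bases on either strand, and 7.25% hold the NF-kappaB consensus. Cxcl10 has the consensus at -159 and, in overlapping matches, at -104 and -103, and GAAANNGAAA at -213, which 2.98% of all windows hold. Of the 54 genes, 39 had a window in the table, and 10 of these held the NF-kappaB consensus, namely Cxcl1, Cxcl2, Cxcl3, Cxcl10, Ccl1, Ccl9, Ccl20, Ccr1, Ccr3 and Ccr6. The interferon core was found in Cxcl10, Ccl19 and Cxcl14. Such a match is a description of the letters and shows no binding. No window was found for genes that include Ccl2, Ccl4, Ccl5, Ccl7, Ccl11, Ccl24, Ccl26, Ccr7, Ccr10, Cxcl5, Cxcl11, Cxcl16, Cxcl17 and Cxcr5.

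**Figure D2:**
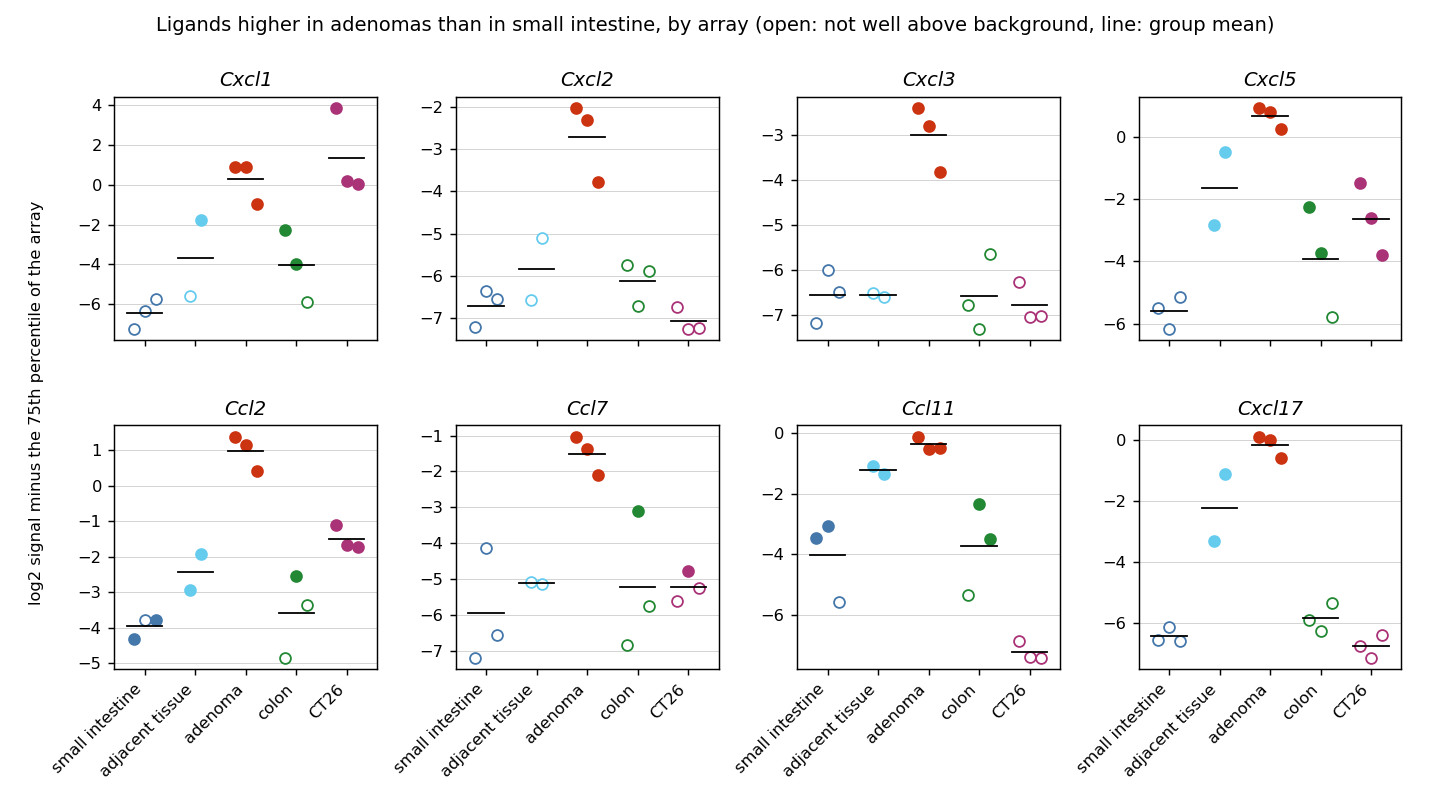
Levels of 8 ligands on each array by group, as log2 signal minus the 75th percentile of the array, with open circles for probes not well above background and lines for group means. In each panel the 3 adenoma arrays lie above all small intestine arrays, and for Cxcl2 and Cxcl3 they are the only arrays well above background.

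The Ccr2 ligands Ccl2, Ccl7 and Ccl12, together with the eotaxin Ccl11, Ccl8 and Ccl1, lie side by side on chromosome 11, their probes between positions 81850650 and 81990227 (mm9). Ccl2, the main attractant of monocytes, had levels of 1.39, 1.15 and 0.41 in adenomas and of -4.31, -3.79 and -3.79 in small intestine, where it was well above background on 2 of 3 arrays. The groups were wide apart, with a difference of 4.94 ± 0.29 (SE), adjusted p = 9.22e-05. Ccl7, another monocyte attractant, was at -1.03, -1.38 and -2.09 in adenomas against -7.21, -4.14 and -6.55, and rose by 4.46 ± 0.76 (SE), adjusted p = 0.00321, at least 8.0-fold. Within slides 1 and 2 its difference was 5.32 and 2.76, small intestine replicate 2, the group's only array on slide 2, having the highest level of its group.

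Ccl12, a mouse ligand of Ccr2, was at -2.33, -2.72 and -2.40 against -5.11, -3.79 and -5.07, a difference of 2.18 ± 0.37 (SE), adjusted p = 0.00317 that was at least 3.76-fold. Ccl8, the remaining Ccr2 ligand, overlapped between the groups, with -2.09, -2.14 and -1.81 in adenomas and -1.82, -1.34 and -2.49 in small intestine. The neighbours of this cluster thus moved unequally. Ccl11, which attracts eosinophils through Ccr3, was at -0.12, -0.53 and -0.49 against -3.46, -3.05 and -5.58, with a difference of 3.65 ± 0.61 (SE), adjusted p = 0.00316. Ccl1, a ligand of Ccr8, was at -4.45, -3.33 and -3.59 and not well above background in any other group, so that its difference of 2.93 ± 0.35 (SE), adjusted p = 0.000814 amounts to at least 1.64-fold.

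The receptor Ccr2 was well above background on all adenoma arrays, at -4.42, -4.50 and -4.34, and on no small intestine array, with a difference of 1.01 ± 0.48 (SE), adjusted p = 0.118, which did not pass. Of 10 markers of monocytes and macrophages, all 10 were well above background on all adenoma arrays and 8 on all small intestine arrays, 1 rose and 1 fell. Their summed signal was 16.4 to 20.3 in adenomas and 25.8 to 26.4 in small intestine. Of the 3 eosinophil markers tested 1 rose and 1 fell, and their list summed to 0.563 to 0.682 in adenomas and 1.85 to 6.22 in small intestine. Most of the sum in small intestine came from the gene that fell. The log2 median over the list went the other way, with -2.9 to -2.6 in adenomas and -4.5 to -4.2 in small intestine. The part of these cells in the levels above was not tested.

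Among the remaining ligands that rose, Cxcl17, a mucosal chemokine, had levels of 0.12, -0.01 and -0.57 in adenomas and of -6.57, -6.13 and -6.61 in small intestine, where it was well above background on none. It rose by 6.28 ± 0.24 (SE), adjusted p = 4.51e-05, at least 20.3-fold, and stayed past both thresholds in every alternative run that tested it. Cxcl12, the stromal ligand of Cxcr4, was at 1.16, 0.73 and 1.59 against -1.42, -0.76 and -1.80, a difference of 2.49 ± 0.33 (SE), adjusted p = 0.00118. This rise is that of its brightest probe. The other probe, well above background on 11 arrays, had means of -2.09 in adenomas and -2.91 in small intestine, and there the arrays of the groups overlapped. Cxcl14, a constitutive chemokine of epithelia, was at 2.63, 2.82 and 2.52 against 0.91, 1.21 and -0.21, a difference of 2.02 ± 0.36 (SE), adjusted p = 0.00395.

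The fibroblast markers, which mark a main source of Cxcl12, summed to 96.2 to 112 in adenomas and 39.9 to 91.1 in small intestine, and 3 of 8 rose and 1 fell. Endothelial markers summed to 17.5 to 21.5 and 12.6 to 17.5, with 4 of 8 higher. Smooth muscle markers summed to 63.8 to 76.7 and 95.3 to 365, with 1 of 6 lower. All of these lists were well above background in both groups, except 1 endothelial gene in small intestine. Their part in the levels of Cxcl12 and Cxcl14 was not tested.

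Of the ligands that fell in adenomas, Ccl25, the small intestine ligand of Ccr9, had levels of 8.32, 8.60 and 8.47 in small intestine and of 5.91, 6.23 and 6.01 in adenomas, without overlap, and it fell by 2.42 on the log2 scale (SE 0.17, adjusted p = 0.00013), 5.33-fold. In a fit of all 5 groups, in which the unequal colon arrays share the estimate of the spread, that call was lost, with an adjusted p of 0.193, as were those of Ccl12 (adjusted p = 0.0242), Ccr7 (0.0183) and Cx3cr1 (0.0493) in limma. Of the other probes of Ccl25, 1 was well above background on a single array. The third probe, measured on 11 arrays, had means of -3.41 in small intestine, -4.35 in adenomas and -2.36 in CT26 and was at -4.37 on colon replicate 3, so that it showed neither a difference of the size called in adenomas nor the high level of that colon array. Ccl5 and Ccl6 lie with Ccl3, Ccl4 and Ccl9 on chromosome 11, their probes between positions 83339296 and 83478111 (mm9). Ccl5, a chemokine made by T cells, was at 4.43, 4.43 and 5.23 in small intestine and 0.78, 1.49 and 1.37 in adenomas, with a difference of -3.48 ± 0.30 (SE), adjusted p = 0.000231. Ccl6, a myeloid and epithelial chemokine of the mouse, was at 6.24, 5.63 and 5.33 and 3.06, 3.11 and 3.09, with a difference of -2.65 ± 0.24 (SE), adjusted p = 0.000308.

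Cx3cl1, a membrane-bound chemokine of epithelium and endothelium, was at 4.68, 5.05 and 5.50 in small intestine and 3.29, 3.51 and 3.58 in adenomas, with a difference of -1.61 ± 0.24 (SE), adjusted p = 0.0018. Its receptor Cx3cr1, found on resident macrophages, moved the other way, at -0.89, -0.77 and -0.72 and 0.25, 0.47 and 1.0, a rise of 1.37 ± 0.22 (SE), adjusted p = 0.00279. On its other probe, measured on 9 arrays, the groups overlapped, with means of -3.58 in small intestine and -2.83 in adenomas. Xcl1, lymphotactin, made by activated T and natural killer cells, was at -3.10, -1.15 and -0.80 in small intestine and not well above background on any adenoma array, at -5.87, -5.04 and -5.51. The difference was -3.79 ± 0.58 (SE), adjusted p = 0.00222, at least 10-fold lower in adenomas.

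The receptors Cxcr6 and Cxcr3 fell. Cxcr6, the receptor of Cxcl16 on intraepithelial and memory T cells, was at -0.74, -0.83 and -0.41 in small intestine and -2.85, -2.87 and -2.46 in adenomas, with a difference of -2.06 ± 0.20 (SE), adjusted p = 0.000352. Its second probe had means of -1.38 and -3.42 in these groups. Cxcr3, the receptor of Cxcl9 and Cxcl10 on effector T cells, was at -2.02, -2.36 and -1.84 and -4.37, -3.78 and -4.08, with a difference of -2.01 ± 0.22 (SE), adjusted p = 0.000615. The 3 Cxcr3 ligands did not pass, with differences from -1.04 (Cxcl9) to 0.20 (Cxcl10). Of 9 T cell markers tested 5 fell and 0 rose, with differences from -3.1 to 0.9. The list of 10 summed to 10.9 to 12.1 in adenomas and 38.2 to 74.8 in small intestine, where most of the sum came from a single gene, among those that fell. Cd247 was well above background on no adenoma array. How far the number of T cells sets these values was not tested.

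Of the receptors that rose, Cxcr4, the receptor of Cxcl12, went from not well above background in small intestine, at -6.67, -6.35 and -5.99, to -1.90, -2.09 and -2.08 in adenomas. The difference was 4.31 ± 0.21 (SE), adjusted p = 5.79e-05, at least 5.56-fold. Ccr7, which guides dendritic cells and naive T cells to lymph nodes, was at -3.35, -3.13 and -3.29 and -1.79, -1.46 and -1.11, with a difference of 1.80 ± 0.21 (SE), adjusted p = 0.00074. Cxcr7, the scavenger receptor of Cxcl12 now called Ackr3, did not overlap either, at -2.14, -1.2 and -3.20 and 0.58, -0.28 and -0.71, but with a difference of 2.04 ± 0.54 (SE), adjusted p = 0.0178, it missed the threshold.

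The other genes tested in adenomas against small intestine did not pass. Ccr9, the receptor of Ccl25, had an adjusted p under the threshold but too small a difference, with -1.13 ± 0.24 (SE), adjusted p = 0.00814. Cxcl9 was at -1.92, -1.58 and -1.98 in small intestine and -3.33, -2.77 and -2.51 in adenomas, without overlap, with a difference of -1.04 ± 0.25 (SE), adjusted p = 0.012. Ccr6 differed by 1.89 ± 0.59 (SE), adjusted p = 0.0319, from -4.13, -4.42 and -6.42 to -3.52, -3.06 and -2.72, and was well above background on 1 small intestine array. The further genes (Ccl3, Ccl4, Ccl8, Ccl9, Ccl17, Ccl19, Ccl24, Ccl27a, Ccl28, Ccr8, Ccr10, Cxcl10, Cxcl11 and Cxcl16) overlapped between the groups, with differences from -0.77 (Ccl28) to 0.93 (Ccl3).

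**Figure D3:**
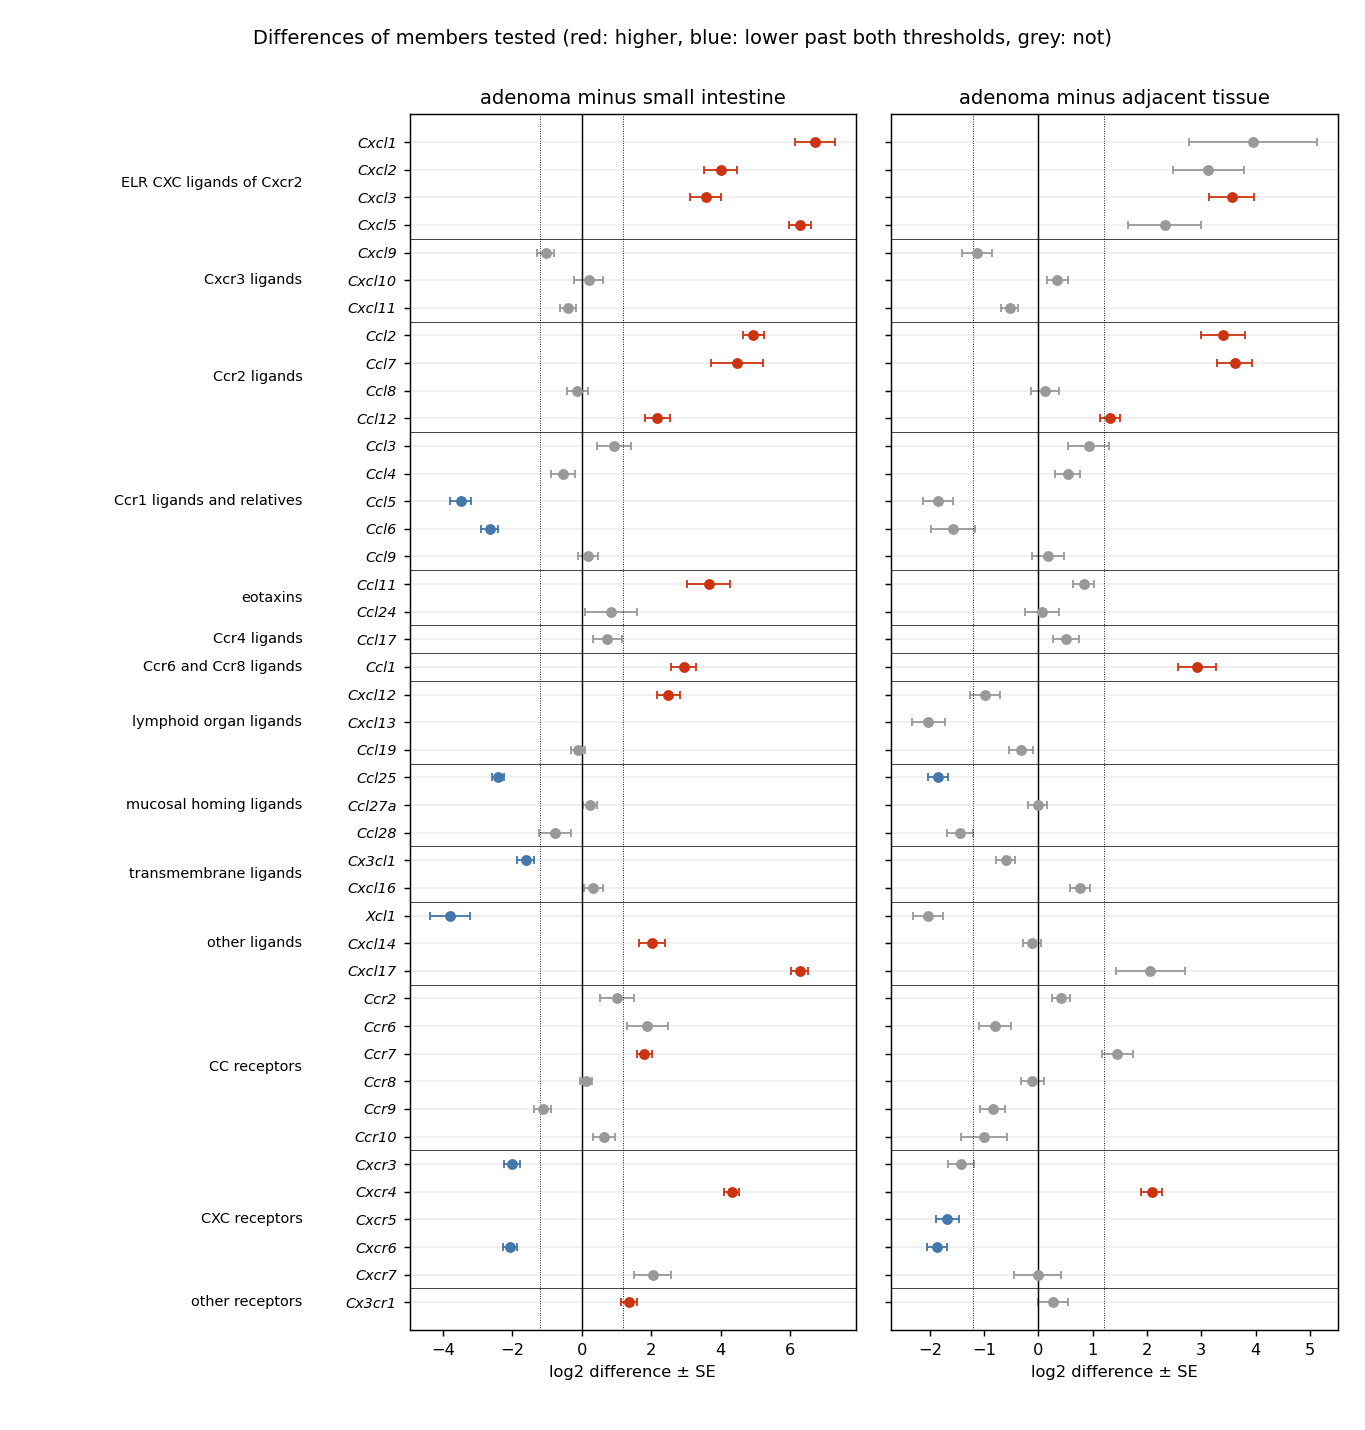
Log2 difference ± SE (limma) of the genes tested, by role, for adenoma minus small intestine (left, 3 against 3 arrays) and adenoma minus adjacent tissue (right, 3 against 2 arrays), with dotted lines at a log2 difference of 1.2 in size. Filled red and blue points passed both thresholds, and the 22 genes called on the left and the 9 on the right include both ligands and receptors.

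Against the tissue next to them, adenomas had higher Ccl1, Ccl2, Ccl7, Ccl12, Cxcl3 and Cxcr4 and lower Ccl25, Cxcr5 and Cxcr6, which makes 6 of 44 genes tested higher and 3 lower. Of all genes tested, 2.4% were higher and 1.78% lower. The 9 differences had the same direction on both slides, but the calls rest on few arrays. With the slide as a block 0 of the 9 were called, and 0 also without adjacent replicate 1 or without any 1 of the adenoma arrays, which leaves 1 or 2 arrays in a group. With the normexp background Ccl1, Ccl12, Cxcl3, Cxcr4 and Cxcr5 missed the threshold, with differences of 0.42, 0.45, 0.90, 0.92 and -0.66. Since adenomas enter both comparisons, the values of both are given side by side and no overlap between them is drawn.

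Both adjacent pieces had lower levels of Ccl2, Ccl7 and Ccl12 than any adenoma. Ccl2 was at -2.93 and -1.91, a difference of 3.40 ± 0.41 (SE), adjusted p = 0.00743. Ccl7 was at -5.08 and -5.15, not well above background, with a difference of 3.62 ± 0.32 (SE), adjusted p = 0.0044 and at least 7.91-fold. Ccl12 was at -3.73 and -3.88, with a difference of 1.32 ± 0.18 (SE), adjusted p = 0.00999, next to the threshold. Ccl8 was again the exception, with -1.78 and -2.49 and a difference of 0.12 ± 0.25.

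Cxcl1, Cxcl5 and Cxcl17 were unequal between the 2 adjacent pieces. Cxcl1 was at -5.59 and -1.77, Cxcl5 at -2.82 and -0.47 and Cxcl17 at -3.31 and -1.12, in each case higher on replicate 2. All adenoma arrays were above both pieces. The differences of 3.96 ± 1.18, 2.33 ± 0.68 and 2.06 ± 0.64 did not pass, with adjusted p-values of 0.0663, 0.0622 and 0.072. Cxcl3 was not well above background on either piece, at -6.51 and -6.60, and its difference of 3.56 ± 0.42 (SE), adjusted p = 0.00703 was at least 2.8-fold. Cxcl2, likewise not measured in adjacent tissue at -6.57 and -5.09, differed by 3.13 ± 0.66 (SE), adjusted p = 0.0282, and Ccl1, at -6.62 and -6.82, by 2.93 ± 0.35 (SE), adjusted p = 0.00719.

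Ccl25 in adjacent tissue, at 8.05 and 7.75, was between small intestine and adenomas, and the adenomas were lower by a difference of -1.85 ± 0.18 (SE), adjusted p = 0.00533. Cxcr6, at -0.85 and -0.86, had a difference of -1.87 ± 0.19 (SE), adjusted p = 0.00533. Cxcr5, the follicle receptor of B cells, was at -4.30 and -4.37 and not well above background on any adenoma array, with a difference of -1.68 ± 0.20 (SE), adjusted p = 0.00762, at least 1.6-fold. Its ligand Cxcl13, at -2.17 and -2.17 in adjacent tissue and -4.75, -4.11 and -3.76 in adenomas, differed by -2.03 ± 0.30 (SE), adjusted p = 0.012, without overlap but short of the threshold. Cxcr4, at -4.34 and -3.88, differed by 2.09 ± 0.19 (SE), adjusted p = 0.00462.

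Further genes were measured on every array of both groups and did not overlap, yet missed the threshold. Ccl5, at 2.85 and 3.27 in adjacent tissue, differed by -1.85 ± 0.27 (SE), adjusted p = 0.0114, and Ccl6, at 5.37 and 3.94, by -1.57 ± 0.41 (SE), adjusted p = 0.0473. Ccl28, the ligand of Ccr10, was at -0.16 and 0.54 against -1.40, -1.12 and -1.25 in adenomas, with a difference of -1.45 ± 0.24 (SE), adjusted p = 0.0166. All 3 were lower in adenomas. Cxcr3, at -2.44 and -2.85 in adjacent tissue, differed by -1.43 ± 0.24 (SE), adjusted p = 0.0161, and Ccr7, at -2.61 and -3.20 and higher in adenomas, by 1.45 ± 0.28 (SE), adjusted p = 0.0225. Neutrophil markers rose in 4 of 9 cases, with sums of 56.5 to 63.1 in adjacent tissue, and their part in the ligand levels was not tested.

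Adjacent tissue and healthy small intestine gave no call among the 36 genes tested by limma, and 18 of them had an unadjusted p under 0.05, as had 30.4% of all probes tested. Of all genes tested, 0.00925% were higher and 0.0% lower, for 2 arrays against 3. Cxcl12 was at 2.04 and 2.26 in adjacent tissue and -1.42, -0.76 and -1.80 in small intestine, without overlap, with a difference of 3.48 ± 0.34 (SE), adjusted p = 0.0344. Cxcl17 was measured on both adjacent arrays and on no small intestine array, with a difference of 4.22 ± 0.63 (SE), adjusted p = 0.0467. Cxcr4 likewise had -4.34 and -3.88 against -6.67, -6.35 and -5.99, a difference of 2.23 ± 0.29 (SE), adjusted p = 0.0427. For all 3 the adjacent pieces lay above small intestine, as did the adenomas.

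Other genes lay apart with larger errors. Cxcl14, at 2.79 and 2.76 in adjacent tissue, differed by 2.14 ± 0.44 (SE), adjusted p = 0.0613. Ccl5 and Xcl1 were lower in adjacent tissue than on any small intestine array, Ccl5 by a difference of -1.64 ± 0.33 (SE), adjusted p = 0.0599 and Xcl1, at -3.24 and -3.65, by -1.76 ± 0.69 (SE), adjusted p = 0.155. Cxcl5 and Cxcl13, measured on both adjacent arrays, had differences of 3.96 ± 0.71 and 3.43 ± 0.77, with adjusted p-values of 0.0542 and 0.0663. Cxcr7, at -0.48 and 0.24, and Ccr10, the receptor of antibody-secreting cells, at -2.51 and -1.15 against -3.19, -3.13 and -4.11, were higher by 2.06 ± 0.59 and 1.64 ± 0.50, with adjusted p-values of 0.0941 and 0.102. T cell markers summed to 15.7 to 22.6 in adjacent tissue, and none of these lists had a call in this comparison.

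The follicle genes Cxcl13 and Cxcr5 stood high in colon, as did the receptors Ccr6 and Ccr7. Cxcl13 had levels of 0.36, 0.30 and 2.22 on the colon arrays and -4.01, -6.17 and -6.63 in small intestine, where it was well above background on 1 array. Cxcr5 had -1.91, -1.16 and 1.04 against -5.25, -6.40 and -6.26, Ccr6, a receptor of B cells and T helper 17 cells, -0.55, 0.21 and 2.49 against -4.13, -4.42 and -6.42, and Ccr7 -1.83, -0.09 and 0.84 against -3.35, -3.13 and -3.29. In all 4 the colon arrays lay above every small intestine array, and colon replicate 3 was the highest. B cell markers ran the same way, with 9 of 10 well above background on all colon arrays and 4 in small intestine, and sums of 6.51 to 46.4 against 1.28 to 1.47. Whether the pieces of colon held lymphoid follicles was not tested.

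With all 3 colon arrays, 0 of 30 genes tested passed against small intestine in limma, 15 had an unadjusted p under 0.05, as had 23.5% of all probes tested, and of all genes tested 0.00485% were higher and 0.00485% lower. The differences were 6.57 ± 0.82 (SE), adjusted p = 0.0391 for Cxcl13, 5.30 ± 0.77 (SE), adjusted p = 0.0509 for Cxcr5, 5.71 ± 0.92 (SE), adjusted p = 0.056 for Ccr6 and 2.90 ± 0.64 (SE), adjusted p = 0.0844 for Ccr7. Without colon replicate 3, 6 genes were called. Cxcl13 (log2 difference 5.94, adjusted p = 0.00509), Cxcr5 (4.44, adjusted p = 0.00231), Ccr6 (4.82, adjusted p = 0.00786) and Cxcr4 (2.64, adjusted p = 0.00696) were higher in colon. Ccl25 (-7.04, adjusted p = 0.000478) and its receptor Ccr9 (-2.43, adjusted p = 0.00335) were lower.

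Ccl25 differed most between the colon arrays. On the colon arrays its levels were 2.11, 0.76 and 8.59, the last being as high as in small intestine. Ccr9 was at -3.83, -3.58 and -2.97 in colon and -1.60, -1.24 and -0.99 in small intestine, without overlap on any of the 3 arrays. Ccl28 had the opposite distribution, with 2.43, 1.94 and 0.33 on the colon arrays and 0.50, -0.44 and -1.51 in small intestine, and only replicate 3 overlapped. Its probe maps to an unplaced stretch of chromosome 13 in mm9. Ccl5 was at -0.45, 1.96 and 1.70 in colon, below all small intestine arrays, with a difference of -3.63 ± 0.66 (SE), adjusted p = 0.0659. Cxcl12, at 0.28, 1.85 and 0.42, differed by 2.18 ± 0.50 (SE), adjusted p = 0.0882. Cxcl16, the membrane-bound ligand of Cxcr6, was at -1.45, -0.66 and -1.03 in colon and -0.23, 0.40 and 0.68 in small intestine, with a difference of -1.33 ± 0.34 (SE), adjusted p = 0.104. Ccr9 itself, with all arrays, had a difference of -2.18 ± 0.31 (SE), adjusted p = 0.0501.

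**Figure D4:**
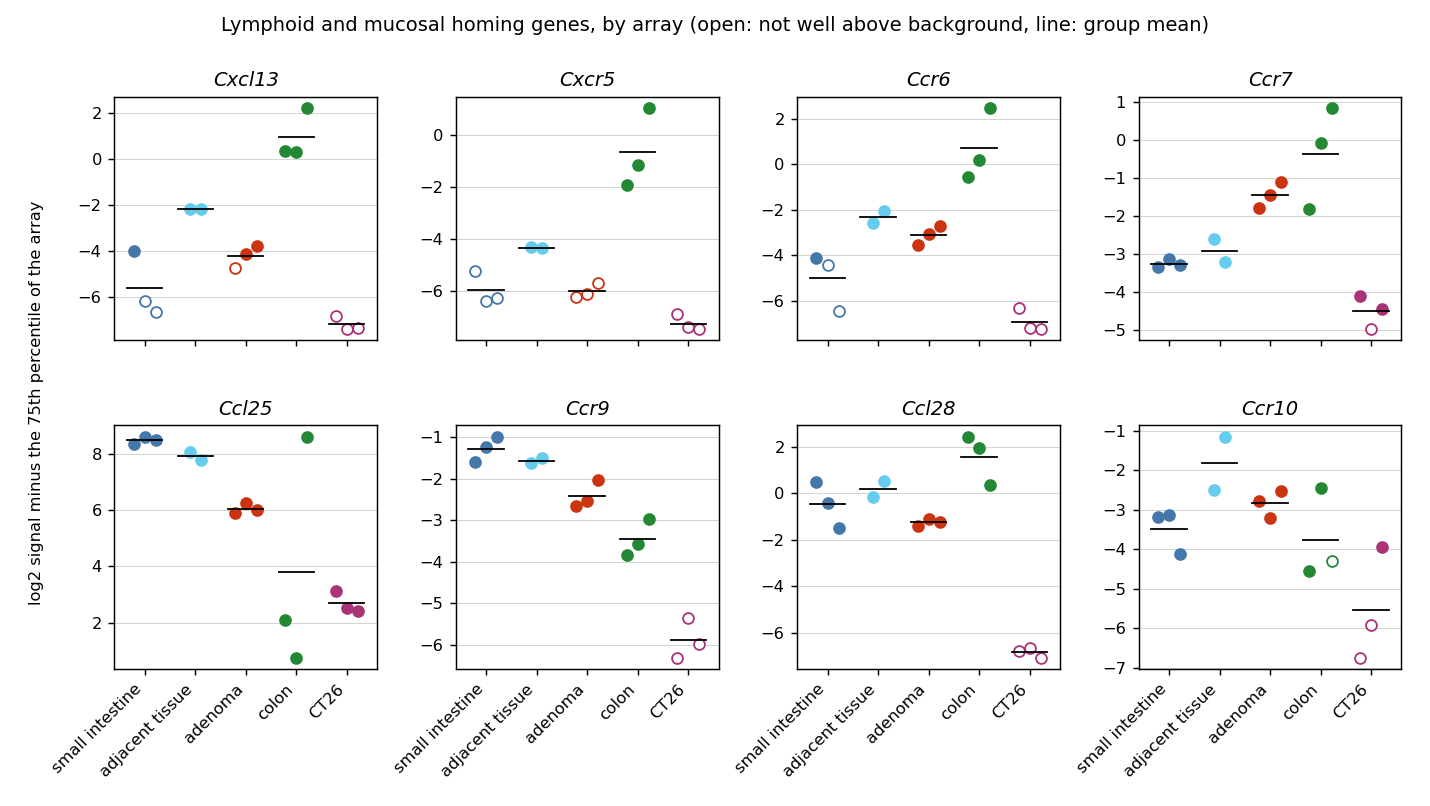
Levels of 4 lymphoid and 4 mucosal homing genes on each array by group, as log2 signal minus the 75th percentile of the array, with open circles for probes not well above background and lines for group means. Colon replicate 3 (rightmost colon point) has the highest Cxcl13, Cxcr5, Ccr6 and Ccr7 of all arrays, and its Ccl25 lies at the level of small intestine.

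Adenomas, which arise in the small intestine of these mice in most cases, were also set against colon. Of 44 genes tested 3 rose (Ccl2, Cxcl14 and Cxcl17) and 3 fell (Ccl6, Cxcl13 and Cxcr5), where 2.07% of all genes tested were higher and 1.63% lower. Cxcl17, not well above background on any colon array at -5.91, -6.28 and -5.34, differed by 5.69 ± 0.32 (SE), adjusted p = 0.00111, at least 20.3-fold. Ccl2, at -4.85, -2.54 and -3.35 in colon and well above background on 1 array there, differed by 4.56 ± 0.61 (SE), adjusted p = 0.00873. Cxcl14, at 0.33, 0.84 and -0.17, differed by 2.32 ± 0.29 (SE), adjusted p = 0.00718.

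Cxcl13 was lower in adenomas by a difference of -5.17 ± 0.58 (SE), adjusted p = 0.00537 and Cxcr5 by -5.34 ± 0.74 (SE), adjusted p = 0.0094, at least 20.2-fold, or at least 11.1-fold without colon replicate 3. Ccl6 was at 6.21, 6.38 and 5.51 in colon, above all adenoma arrays, with a difference of -2.94 ± 0.27 (SE), adjusted p = 0.00307. B cell markers were lower in 2 of 9 cases and summed to 1.58 to 1.68 in adenomas, and their part was not tested. All 6 differences had the same direction on both slides, but with the slide as a block 1 of the 6 was called, and with the normexp background Cxcr5 missed the threshold, with a difference of -2.77.

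Without colon replicate 3, 15 genes were called, the 6 above included. The further 9 were Ccl1, Ccl17, Ccl24, Ccl25, Cxcl3, Cxcl5 and Cxcl16, higher in adenomas, and Ccl28 and Ccr6, lower. Ccl24, an eotaxin, was at -1.03, -0.43 and -0.58 in adenomas and at -5.21, -5.33 and -2.46 in colon, with a log2 difference of 4.59, adjusted p = 0.000294 without that array. The same value was 3.66, adjusted p = 0.0042 for Cxcl5 and -3.44, adjusted p = 0.000514 for Ccl28. With all arrays, Ccl28 differed by -2.82 ± 0.54 (SE), adjusted p = 0.0247, Ccr6 by -3.82 ± 0.77 (SE), adjusted p = 0.0293, Cxcl16, at 0.50, 0.86 and 0.48 in adenomas, by 1.66 ± 0.26 (SE), adjusted p = 0.0136, and Cxcr6, at -1.86, -1.12 and -0.02 in colon, by -1.72 ± 0.47 (SE), adjusted p = 0.0654. By contrast, 0 genes were called without adenoma replicate 1 or 2, and 1 each without adenoma replicate 3 or colon replicate 1.

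In CT26 cells most of this gene group was not measured, 11 of the 54 genes being well above background on all 3 arrays. Of 29 genes tested 17 were lower than in colon and 3 higher, where 16.2% of all genes tested were lower and 21.0% higher. The median difference was -3.74 over the chemokine genes tested and 0.32 over all genes tested. All 20 differences kept their direction within each slide, and 17 of the 20 stayed past both thresholds with any 1 array left out. The exceptions were Ccl8, Ccr8 and Cxcl1. Without colon replicate 3, 21 genes were called, 19 of the 20 among them, and Cxcl1 was not (log2 difference 4.47, adjusted p = 0.0147).

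Cxcl10 and Cxcl1 rose in CT26. Cxcl10, whose probe lies with those of Cxcl9 and Cxcl11 on chromosome 5 between positions 92752191 and 92788626 (mm9), had levels of 6.38, 4.14 and 4.92 in CT26 and -1.53, 0.29 and -0.52 in colon, and its levels in small intestine, adjacent tissue and adenomas were all below 0. It rose by 5.73 ± 0.66 (SE), adjusted p = 0.000304, 53.1-fold, within slides 1 and 2 by 5.36 and 5.16. Its second probe was well above background on the 3 CT26 arrays alone. Cxcl1 had 3.86, 0.19 and 0.02 in CT26 and -2.25, -3.98 and -5.89 in colon, where it was measured on 2 of 3 arrays, without overlap, with a difference of 5.39 ± 1.22 (SE), adjusted p = 0.00738. CT26 replicate 1 was higher than the other 2 for Cxcl1 and Cxcl10 and likewise for Ccl4 (-1.38, -4.75 and -3.86) and Ccl5 (5.10, 2.27 and 1.99).

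The neighbours of Cxcl1 differed from it in CT26. Cxcl2, at -6.73, -7.26 and -7.24, and Cxcl3, at -6.27, -7.04 and -7.02, were not well above background on any CT26 array. Cxcl5 was at -1.46, -2.60 and -3.80, overlapping with colon at -2.24, -3.73 and -5.79. Ccl2 was measured on all 3 CT26 arrays, at -1.12, -1.68 and -1.73, and on 1 of 3 colon arrays, with a difference of 2.07 ± 0.57 (SE), adjusted p = 0.0177. Ccr8, the receptor of Ccl1, was higher by 1.46 ± 0.32 (SE), adjusted p = 0.00661, at least 1.91-fold. It was close to background everywhere, at -3.31, -3.91 and -3.44 in CT26 and -4.72, -5.39 and -4.93 in colon, its other probe was well above background on no array, and with the normexp background its difference was 0.02.

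Of the ligands that fell, Cx3cl1 was at -6.85, -6.18 and -6.61 in CT26, not well above background, and at 4.09, 3.78 and 4.69 in colon, a difference of -10.73 ± 0.35 (SE), adjusted p = 8.63e-07, at least 573-fold. Ccl6, at -6.65, -4.71 and -5.02, was well above background on 1 of 3 CT26 arrays, and its difference of -11.49 ± 0.54 (SE), adjusted p = 3.54e-06, was at least 1790-fold. Ccl28 was at -6.79, -6.63 and -7.08, with a difference of -8.40 ± 0.54 (SE), adjusted p = 1.52e-05, at least 93.5-fold, or at least 144-fold without colon replicate 3. All colon arrays were far above all CT26 arrays for these 3.

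Cxcl12 and Cxcl14 were at -6.57, -7.11 and -6.36 and at -6.05, -7.07 and -7.27, not well above background at their brightest probes, with adjusted p-values of 1.4e-05 and 1.17e-05. These probes were at least 56.8-fold and 39.8-fold lower in CT26. The other probe of Cxcl12 was well above background on CT26 replicate 3, at -2.22. Ccl27a, a skin and epithelial ligand of Ccr10, was at -6.65, -6.57 and -7.15 in CT26 and 0.05, 0.50 and -0.47 in colon. It differed by -6.82 ± 0.35 (SE), adjusted p = 5.37e-06, at least 32.1-fold, and all 3 of its probes were lower and not well above background in CT26. Cxcl13 was at -6.81, -7.39 and -7.34 in CT26, at least 61.5-fold lower (at least 39.7-fold without colon replicate 3), and Cxcl16 at -4.84, -4.96 and -5.08, at least 14.2-fold. Ccl8, at -5.93, -4.97 and -5.63 against -3.06, 0.72 and -0.49, was at least 15.7-fold lower, and Xcl1, at -6.76, -7.31 and -7.28 against -3.19, -4.12 and -2.84, at least 3.02-fold. Their adjusted p-values were 1.9e-05, 4.36e-05, 0.00351 and 0.000206 in that order.

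The 7 receptors that fell had differences from -7.63 (Ccr6) to -2.42 (Ccr9). Ccr6 was at -6.29, -7.20 and -7.24 in CT26, Cxcr5 at -6.91, -7.40 and -7.47 and Cx3cr1 at -6.63, -5.60 and -7.04 against -1.49, 0.57 and -1.30 in colon. These were at least 51.9-fold, 19.8-fold and 18.9-fold lower, since none was well above background in CT26. Without colon replicate 3 the bounds were 28.1-fold for Ccr6, 10.9-fold for Cxcr5 and 23-fold for Cx3cr1. Cxcr4, at -6.88, -7.28 and -7.28 against -4.18, -3.21 and -1.55, and Ccr9, at -6.31, -5.36 and -5.98, were at least 3.99-fold and 2.87-fold lower, and without colon replicate 3 at least 2.43-fold and 2.42-fold. Ccr7, measured on 2 CT26 arrays at -4.09, -4.97 and -4.44, differed by -4.14 ± 0.65 (SE), adjusted p = 0.0014, and Cxcr6, measured on 1 at -4.82, -4.95 and -3.85, by -3.54 ± 0.53 (SE), adjusted p = 0.00108. With the normexp background Ccr9, Cxcr4 and Xcl1 missed the threshold, with differences of -1.03, -1.43 and -1.37. Cxcr7 was measured on all CT26 arrays, at -1.14, 0.56 and -0.02, and overlapped with colon at -1.94, -0.39 and -3.40.

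Beside these, B cell markers summed to 0.71 to 1.03 in CT26 and 7 of 9 tested were lower than in colon, with Ms4a1 and Pax5 among those well above background on no array. Monocyte and macrophage markers summed to 6.57 to 8.97 and 6 of 8 were lower, with C1qa, C1qc, Lyz2, Emr1 and Fcgr1 among those above background on none. T cell markers summed to 6.65 to 11.7 in CT26 and 7.38 to 19.0 in colon, and 3 of 6 tested were lower. Cd3d, Cd3g, Cd2 and Cd8b1 were well above background on no CT26 array. In each of these lists other markers were well above background on all CT26 arrays. They were 4 of 10 for B cells, 3 of 10 for monocytes and macrophages and 3 of 10 for T cells. Epithelial markers summed to 36.4 to 56.5 against 1540 to 3060, and smooth muscle markers to 0.203 to 0.452 against 360 to 516. Fibroblast markers ran the other way in sum, with 215 to 312 against 41.8 to 83.9, although 4 of 8 were lower and 1 higher. The loss of a gene in CT26 and the absence of a cell type that expresses it in colon cannot be told apart here.

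Ccl9 and Ccl5 were measured on all arrays of CT26 and colon and did not overlap, but missed the threshold. Ccl9, a myeloid chemokine, was at -3.15, -0.26 and -0.46 in CT26 and 0.89, 2.07 and 1.97 in colon, with a difference of -2.93 ± 0.77 (SE), adjusted p = 0.0147. Ccl5, higher in CT26, differed by 2.05 ± 0.95 (SE), adjusted p = 0.107. Ccl19, with 0.22, -1.21 and -0.32 in CT26 and -3.10, -2.10 and -1.68 in colon at its brightest probe, differed by 1.86 ± 0.50 (SE), adjusted p = 0.0161, but its probes disagree as described. Ccl25 was measured on all CT26 arrays, at 3.13, 2.54 and 2.42, and overlapped with colon through colon replicate 3 alone, at 8.59. The other colon arrays, at 2.11 and 0.76, lay below all CT26 arrays, but Ccl25 was not called without replicate 3 either.

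**Figure D5:**
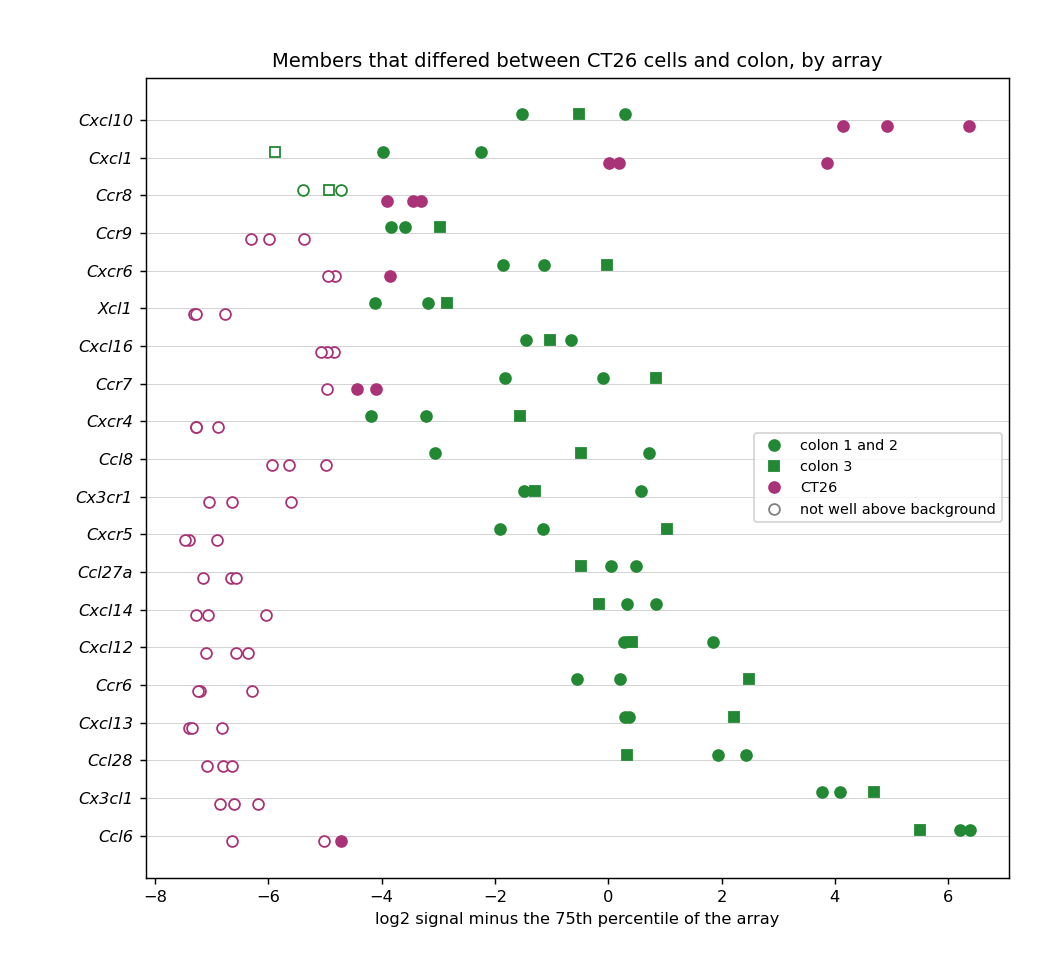
Levels on the 3 colon arrays (green, replicate 3 as a square) and the 3 CT26 arrays (purple) for the 20 genes that passed, as log2 signal minus the 75th percentile of the array, with open symbols for probes not well above background. In CT26 only Cxcl10, Cxcl1 and Ccr8 lie above colon, and 14 of the other 17 genes have no CT26 array well above background at their brightest probe.

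Other genes of the chemokine pathway were followed in 4 lists. For chemokines and atypical receptors outside the name rule, 13 names were searched, and 9 of these names were on the array. Of the 7 genes tested, 4 rose in adenomas against small intestine and 1 fell. Pf4 and Ppbp, chemokines of platelets, were among those that rose, at -0.84 and -6.59 in small intestine and 0.95 and -2.93 in adenomas on average. Of 24 genes of receptor signalling tested, 0 rose and 6 fell, with a median difference of -0.78. Of 14 inducing cytokines and NF-kappaB genes tested, 4 rose and 1 fell. These were Il1b, Tnf, Il6 and Icam1, which rose, and Relb, which fell.

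Il6, an inflammatory cytokine, was at 0.14, -0.70 and -1.71 in adenomas and -7.23, -6.23 and -6.54 in small intestine, and Il1b at 0.72, 0.61 and 0.61 and -4.18, -3.82 and -3.58. Both lay apart without overlap. Of 7 genes of chemokine processing tested, Mmp2, Mmp8 and Mmp9, proteases that cleave chemokines, rose and Dpp4, which trims several of them, fell. Against adjacent tissue the same 4 lists had 0, 1, 3 and 1 genes higher and 0, 1, 0 and 1 lower. In CT26 against colon, 13 of 23 genes of receptor signalling fell and 1 rose, and of 12 inducing cytokines and NF-kappaB genes 3 rose (Il6, Nfkb2 and Rela) and 3 fell.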

How the data were processed

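RNA of 14 samples was hybridised to one-color Agilent mouse arrays, and the authors deposited the scanner output, whose signals are intensities that Feature Extraction 10.7.3.1 had background-subtracted, together with a log2 table of normalized values. Probe coordinates follow mm9. The main values were log2 of the deposited processed signal minus the 75th percentile over all 55681 probes, with spots of a probe averaged and a gene read from its brightest probe over all arrays. The deposited log2 table served as an alternative. Its columns of the authors' own comparisons (fold changes and p-values) were not used, nor were its 28 columns of flags and detection calls.

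Each of the 6 comparisons was fitted on its own arrays in limma 3.58.1 (R 4.3.3), over probes that were well above background throughout at least 1 of the groups, with Benjamini-Hochberg adjustment over all probes tested. The thresholds follow the study's methods (log2 fold change at least 1.2 in size, adjusted p at most 0.01). Named with values are the genes called and those measured on every array of both groups that did not overlap and differed by at least 1.2. Promoter windows came from RefSeq (GRCm38.p6). Their coordinates were never joined to mm9. Alternatives changed the normalization, background, filter, thresholds, probe rule, arrays and blocks (slide, replicate number), and 1 fit of all 5 groups without colon replicate 3 and a block on the numbers of the titles were added after seeing the data. The script was tested on simulated data. The number of arrays limits the precision. The genes and lists were chosen with earlier results of these data known. The values of 1 gene of the group and the names of some markers are not reported here.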

Additional observations from a re-analysis of the deposited data

How the results depend on the processing

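Adenomas against small intestine gave between 16 and 27 called genes under all alternatives but 1, against 22. At the brightest probe, 9 genes (Ccl2, Ccl5, Ccl6, Cxcl1, Cxcl5, Cxcl12, Cxcl17, Cxcr4 and Cxcr6) passed in every setting that tested them. Where a gene had to be well above background in both groups, which leaves out those measured in 1 group alone, the count was 10, and in CT26 against colon it was 1 instead of 20. With 1 array left out the counts were 16 to 23 and 17 to 22 in these comparisons. Adenomas against adjacent tissue (9 called) gave 5 genes in the authors' table, 0 without a filter on dim probes, 3 in the fit of all 5 groups, 0 with the slide block, 18 at a log2 difference of 1.0 and an adjusted p of 0.05, and 0 to 7 with an array left out. Adenomas against colon (6 called) gave 2 without a filter, 2 with the filter on both groups, 16 in the fit of all 5 groups, 17 in that fit without colon replicate 3, 1 with the slide block, 19 at the looser thresholds and 0 to 15 with an array left out. Colon against small intestine (0 called) gave 8 in the fit of all 5 groups, 12 in that fit without colon replicate 3, 1 at the looser thresholds and 0 to 6 with an array left out. Adjacent tissue against small intestine (0 called) gave 2 in the fit of all 5 groups, 3 at the looser thresholds and 0 to 0 with an array left out. The cause of these changes was not tested. Of the values of single genes under alternatives, all at the brightest probe, 919 kept their side of the thresholds, 203 lost and 39 gained it, and 0 changed sign. Other probes of a gene were not among these values and can turn the sign. For Ccl19 in CT26 against colon they had differences of -5.17 and -0.48, against 1.86 at the brightest probe. In adenomas against small intestine the other probe of Cxcl12 differed by 0.82 with overlapping arrays, against 2.49 at the brightest probe. The other probe of Cxcr6 differed there by -2.04, against -2.06. The median over all probes tested was -0.15 in adenomas against small intestine and -0.05 after quantile normalization, and 0.37 in CT26 against colon and 0.12 with the normexp background.

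The sample labels give replicate numbers but name no pairs. Samples of the same number had correlations of their deviations between -0.222 and 0.302. With 2 or 3 arrays in a group, these values cannot show whether samples were paired. With the replicate block, 21 genes were called in adenomas against small intestine, 2 against adjacent tissue, 0 against colon, 20 in CT26 against colon and 0 in each of the other comparisons. The titles number the adjacent pieces 2 and 3, not 1 and 2. With those numbers, tried after seeing the data, the correlations were -0.00402 and -0.11 with adenomas and -0.0894 and 0.248 with small intestine, and the block gave 0 genes in both comparisons of adjacent tissue.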
